A study of Sus scrofa with 18 samples.

Results

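The comparison covers the step from 4 h to 8 h of treatment with all-trans retinoic acid (ATRA) in the pig kidney epithelial line LLC-PK1. Its members are the 3 arrays labelled as cells at 8 h and the 3 labelled as cells at 4 h, 6 of the 18 arrays of the series, and all 27558 probe sets were compared. The samples were chosen by their time labels alone, with replicate numbers 1, 2 and 3 matched between the times. The line comes from a male Hampshire pig; all cultures had been grown past confluence before ATRA was added, and the labels give no dose. The other 12 arrays stand at 0 h (untreated), 0.5, 1 and 12 h of ATRA, with 3 biological replicates each. The 4 h and 8 h groups thus share the cell line, the growth state and the treatment and differ in its length; 0 h is the only untreated group, so time since the start of the experiment and ATRA exposure cannot be told apart. The labels do not say whether the replicates came from separate passages or days, so the p-values measure the spread between these samples.

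ATRA is the hormone form of vitamin A. It binds retinoic acid receptors, which sit on DNA as partners of retinoid X receptors and switch on target genes, among them the enzymes that degrade and store retinoids. Cells that leave rest and enter the division cycle pass through an ordered series of gene programmes: immediate early transcription factors and feedback inhibitors of the growth factor kinase ERK come early, ribosome production follows, and the genes for DNA replication, then for mitosis, come later. Genes that mark resting cells, such as those driven by FOXO and p53, are typically low while growth signals are strong.

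Each array gives 1 log2 signal per probe set, so a difference of 1 is a 2-fold change. Array medians lay between 5.59 and 5.67 over the 18 arrays. Epithelial markers were present at both times: EPCAM averaged 10.56 ± 0.50 (SD, n = 3) at 4 h and 10.53 ± 0.40 at 8 h, and KRT8 averaged 12.03 ± 0.03 and 11.87 ± 0.24, neither of them called (limma adjusted p = 0.878 and 0.347). KRT18, the keratin that pairs with KRT8, averaged 11.01 ± 0.32 and 10.57 ± 0.45 and was called lower (-0.44, adjusted p = 0.024), but not with no replicate term (adjusted p = 0.329) nor without the 4 h array of replicate 2 or 3 or the 8 h array of replicate 1 or 2 (0.0961 to 0.109). Of the markers that define proximal tubule cells, LRP2, HNF4A and CUBN had mean log2 signals of 11.34, 8.98 and 9.03 at 8 h; CDH1, TJP1, OCLN and AQP1 had no probe set under those symbols and were not analysed here. For markers of other cells, the mean log2 signal of 17 podocyte, endothelial and immune markers ran from 4.52 to 4.65 on the 4 h arrays and from 4.38 to 4.60 on the 8 h arrays, and that of 20 fibroblast and mesenchymal markers from 6.14 to 6.26 and from 6.04 to 6.14. At 8 h 2 of those 17 and 8 of those 20 lay above the median probe set. For 19 markers of the loop, distal tubule and collecting duct, the mean ran from 5.05 to 5.15 at 4 h and from 5.04 to 5.08 at 8 h. Of those 19, 5 lay above the median probe set at 8 h. Among these sets the fibroblast genes COL1A1 and TWIST2 were called, both lower (adjusted p = 0.015 and 0.0492). With no replicate term neither was called (adjusted p = 0.065 and 0.375). The other probe set of COL1A1 was not called in the main fit (-0.16, adjusted p = 0.375). COL1A1 was not called without the 4 h array of replicate 2 or the 8 h array of replicate 1 or 2 (adjusted p = 0.0522 to 0.0984), nor TWIST2 without any 1 array other than the 8 h array of replicate 3 (0.105 to 0.181). The part of such cells in the results was not tested.

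Replicate 1 stood apart at both times. Across probe sets its 4 h array correlated at 0.9840 and 0.9841 with the other 4 h arrays, which correlated at 0.9923 with each other, and at 0.9869 to 0.9876 with the 8 h arrays. Its 8 h array correlated at 0.9824 and 0.9817 with the other 8 h arrays, against 0.9938 between those. For 150 of the 165 genes named by rule and called, the 4 h array of replicate 1 lay nearer to the 8 h mean than the other 4 h arrays did. The overall counts, the counts of most lists and the values of most genes given array by array are therefore given with and without replicate 1. Leaving out replicate 1 often enlarged a difference, and other fits gave smaller ones. Over the fits without 1 array or 1 replicate number, the smallest differences were 1.32 for POLE2, 1.46 for DTL, 1.01 for SESN1 and -1.51 for IL4R. Of the 165 calls, 0 were kept without each replicate number in turn.

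Between 4 h and 8 h, 24 of 35 genes of DNA replication, 21 of 25 of DNA repair and 33 of 49 of mitosis rose. In the same step 11 of 20 genes of the ERK list, 9 of 23 of the NF-kappaB list, 8 of 19 immediate early genes and 17 of 36 of ribosome biogenesis fell. These and the other lists were chosen with earlier results of these data known. Their counts are descriptions, not independent support, and no set test was run. In a linear model with the replicate number as a block (limma, Benjamini-Hochberg adjusted p under 0.05, spread pooled over 18 arrays), 1288 probe sets were called higher at 8 h (4.67% of those tested) and 890 were called lower (3.23%). Counted as 12361 named genes, each through its brightest probe set, 745 rose (6.03%) and 463 fell (3.75%). These shares are the background for every list count in the step. The steps were mostly modest: the median change was 1.46-fold among genes that rose and 1.42-fold among those that fell, and 61 and 24 genes changed at least 2-fold. The median SE of a gene's log2 difference was 0.117. Of the genes that rose, 744 were higher at 8 h in all 3 replicate pairs, and 461 had 8 h values wholly above the 4 h values; of those that fell, 460 were lower in all 3 pairs and 375 had values that did not overlap. Among all 12361 genes, 1032 had 8 h values wholly above and 1017 wholly below the 4 h values. A call in a fit with the replicate number as a block favours pairs that agree, so these counts are no independent support. Agreement in all 3 pairs was not counted over all genes.

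**Figure D1:**
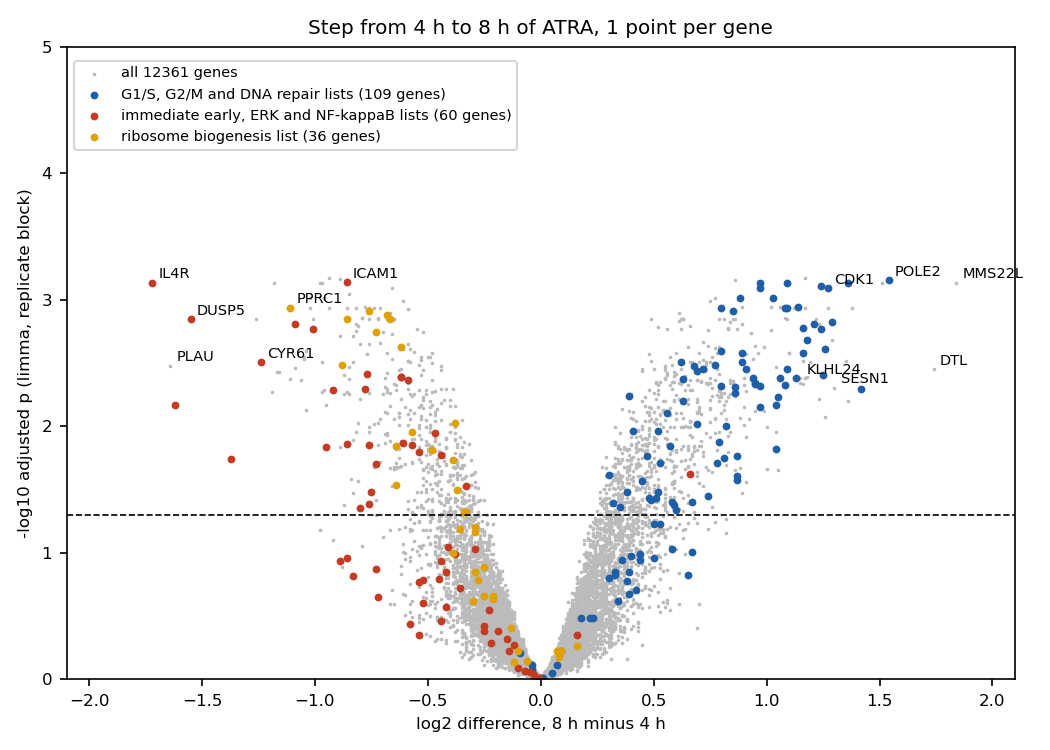
Log2 difference, 8 h minus 4 h (horizontal axis), against -log10 of the limma adjusted p (vertical axis), 1 point per gene for 12361 genes, with 3 groups of lists in colour and the dashed line at an adjusted p of 0.05. The 109 genes of the replication, mitosis and repair lists lie mostly to the right, and the 60 immediate early, ERK and NF-kappaB genes and the 36 ribosome biogenesis genes mostly to the left.

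The number of calls depended on the arrays in the fit. Without replicate 1 at any time, 752 genes rose and 518 fell. The numbers were 267 and 177 without the 4 h array of replicate 2, 344 and 221 without that of replicate 3, 405 and 330 without the 8 h array of replicate 1, and 344 and 236 without that of replicate 2. No gene was called without replicate 2 or without replicate 3 at every time, where limma had 5 residual degrees of freedom and 3257 and 4718 probe sets had an unadjusted p under 0.05. With no term for the replicate number 287 genes rose and 223 fell. Every called probe set kept its direction in each of these fits. They reuse the same arrays, and 1287 of the 1288 higher and 884 of the 890 lower calls already agreed in all 3 pairs. Kept directions are therefore no independent support.

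**Figure D2:**
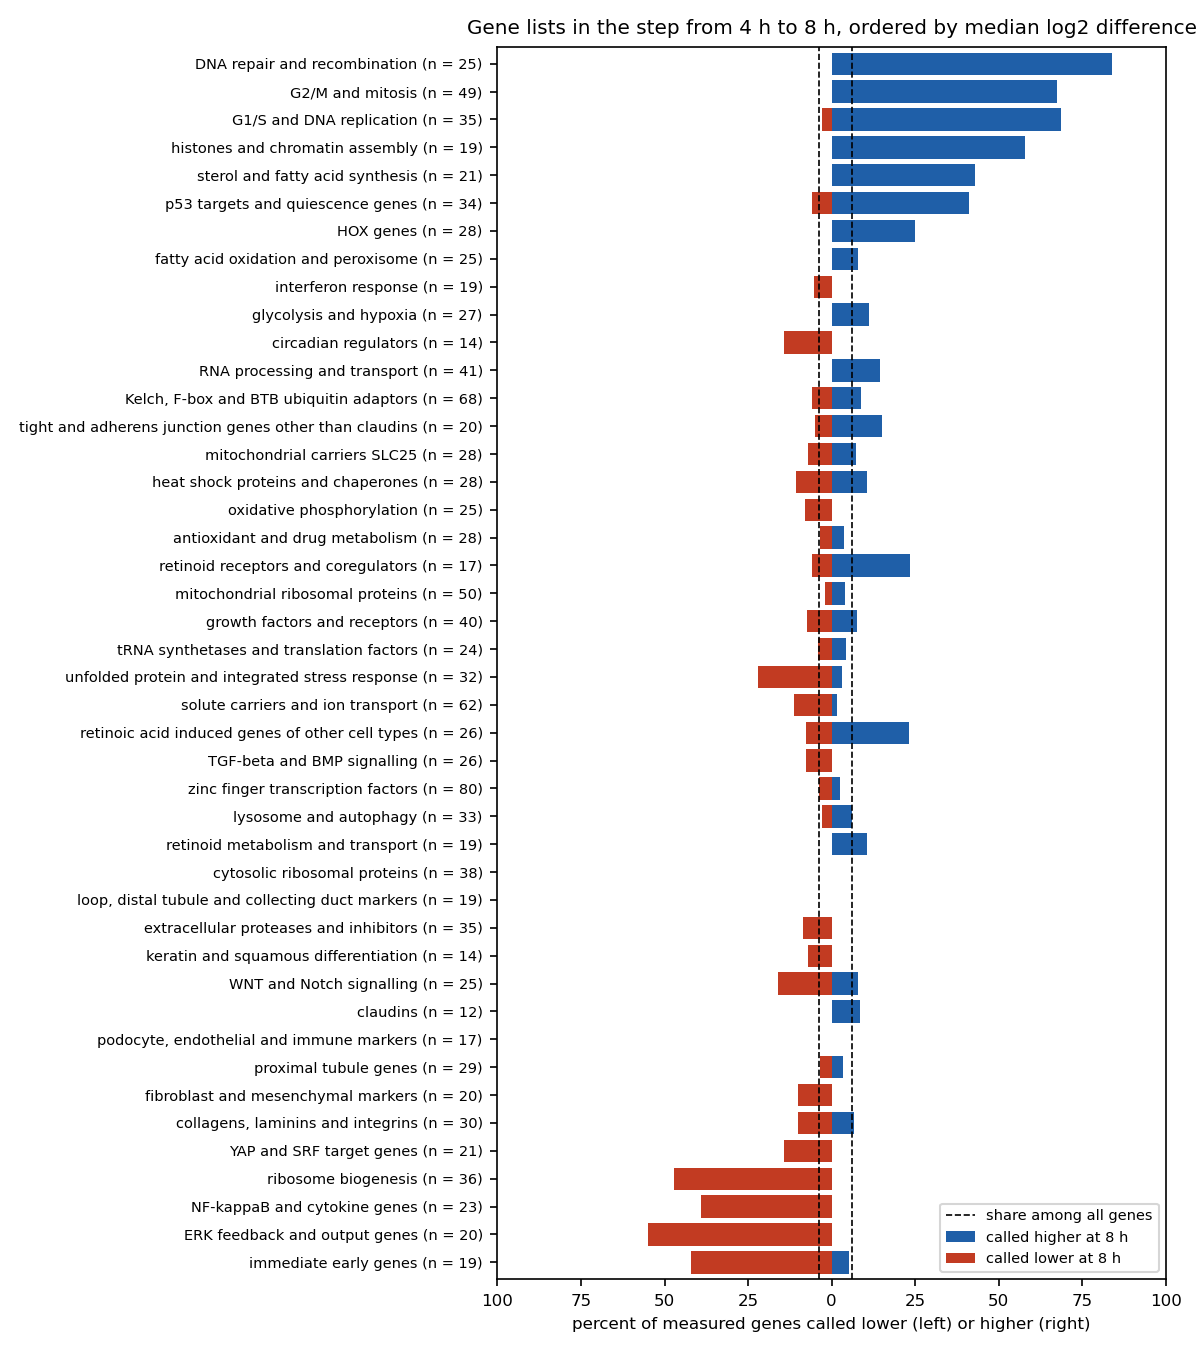
Percent of the measured genes of each of 44 lists called higher (bars to the right) or lower (bars to the left) at 8 h than at 4 h, ordered by the list's median log2 difference; n is the number of genes measured and the dashed lines mark the shares among all genes, 6.03% and 3.75%. DNA repair (21 of 25 higher), replication (24 of 35) and mitosis (33 of 49) stand at the top, and ERK output (11 of 20 lower) and immediate early genes (8 of 19) at the bottom. The lists were chosen with earlier results of these data known.

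The replication list held 35 measured genes, of which 24 rose and CCND1 alone fell; the median step was 0.63 against -0.0111 over all genes. The median of the 3 replicate pairs was 0.35, 0.93 and 0.82. POLE2, a subunit of the leading-strand DNA polymerase epsilon, read 5.55, 4.28 and 4.80 at 4 h (replicates 1, 2 and 3) and 6.67, 6.26 and 6.33 at 8 h (probe set 15196336). All 8 h arrays lay above all 4 h arrays, and the rise was 2.92-fold (log2 difference 1.54 ± 0.16 SE, n = 3 per time, limma adjusted p = 0.000693; 1.76 without replicate 1). ORC1, the largest subunit of the complex that marks replication origins, read 7.03, 5.86 and 6.04 at 4 h and 7.63, 7.73 and 7.84 at 8 h. The 8 h values were again wholly higher, with replicate 1 giving the smallest difference, and the rise was 2.68-fold (1.42 ± 0.26, adjusted p = 0.00511; 1.83 without replicate 1). CDC6, which loads the replicative helicase onto origins with ORC1, rose 2.27-fold (adjusted p = 0.00208), and CHAF1B, a subunit of the factor that places histones on new DNA, rose 2.13-fold (adjusted p = 0.00354). None of POLE2, ORC1, CDC6 and CHAF1B was called between 0 h and 4 h (limma adjusted p = 0.261 to 0.803).

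In bulk RNA, a larger share of cells in a phase of the cycle and more RNA per cell cannot be told apart. The replication count was 24 without replicate 1, 17 without the 4 h array of replicate 2 or 3 or the 8 h array of replicate 2, and 16 with no replicate term.

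Several of the largest rises outside the list also belonged to genes of replication. MMS22L, which helps restart broken replication forks by homologous recombination, had the largest step of any named gene: it read 6.84, 5.39 and 5.38 at 4 h and 8.20, 7.50 and 7.45 at 8 h. The groups did not overlap, and the rise was 3.59-fold (probe set 15184623, 1.84 ± 0.20, adjusted p = 0.000731; 2.09 without replicate 1). DTL, the substrate receptor of a ubiquitin ligase that removes the licensing factor CDT1 during S phase, read 8.39, 6.55 and 7.03 and then 9.22, 8.85 and 9.10. Here too every 8 h array was above every 4 h array, and the rise was 3.33-fold (1.74 ± 0.29, adjusted p = 0.00354; 2.19 without replicate 1). MTBP, a partner of the origin-firing factor TICRR, rose 2.85-fold from 6.63, 5.23 and 5.48 to 7.71, 7.12 and 7.04 (1.51 ± 0.17, adjusted p = 0.000736; 1.72 without replicate 1). DDIAS, a protein induced by DNA damage, rose 2.6-fold (adjusted p = 0.00115).

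All 25 measured genes of DNA repair and recombination had a higher mean at 8 h, 21 rose and none fell, and the median step was 0.69. BLM, a helicase that unwinds recombination intermediates, read 5.69, 4.60 and 4.83 at 4 h and 6.69, 6.10 and 6.20 at 8 h (2.45-fold, 1.29 ± 0.19, adjusted p = 0.00151; 1.43 without replicate 1). Its second probe set rose as well, by 1.68 ± 0.20. RMI2, a partner of BLM in the complex that dissolves crossed DNA strands, rose 2.35-fold (adjusted p = 0.00156). CHEK1, the kinase that holds cells when replication stalls, read 5.98, 4.79 and 5.16 and then 6.78, 6.42 and 6.50 (2.39-fold, 1.25 ± 0.22, adjusted p = 0.0039; 1.48 without replicate 1). For BLM and CHEK1 the 4 h and 8 h arrays did not overlap. RAD1, part of the ring that signals to that kinase from damaged DNA, rose 2.41-fold (adjusted p = 0.00115) after a fall from 0 h to 4 h (-0.86, adjusted p = 0.00229). ATAD5, which unloads the sliding clamp PCNA after replication, rose 2.36-fold (adjusted p = 0.000777), and its other probe set by 1.39 ± 0.13. EXO1, a nuclease that trims DNA ends, rose 2.36-fold (adjusted p = 0.00169), and RAD54B, a recombination motor, 2.56-fold (adjusted p = 0.00633), while its other probe set rose by 0.67 ± 0.15 (adjusted p = 0.0138). With no replicate term EXO1 and RAD54B were not called (adjusted p = 0.111 and 0.234). The list count was 18 without replicate 1; it was 10 and 12 without the 4 h arrays of replicates 2 and 3, 14 and 13 without the 8 h arrays of replicates 1 and 2, and 6 with no replicate term.

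**Figure D3:**
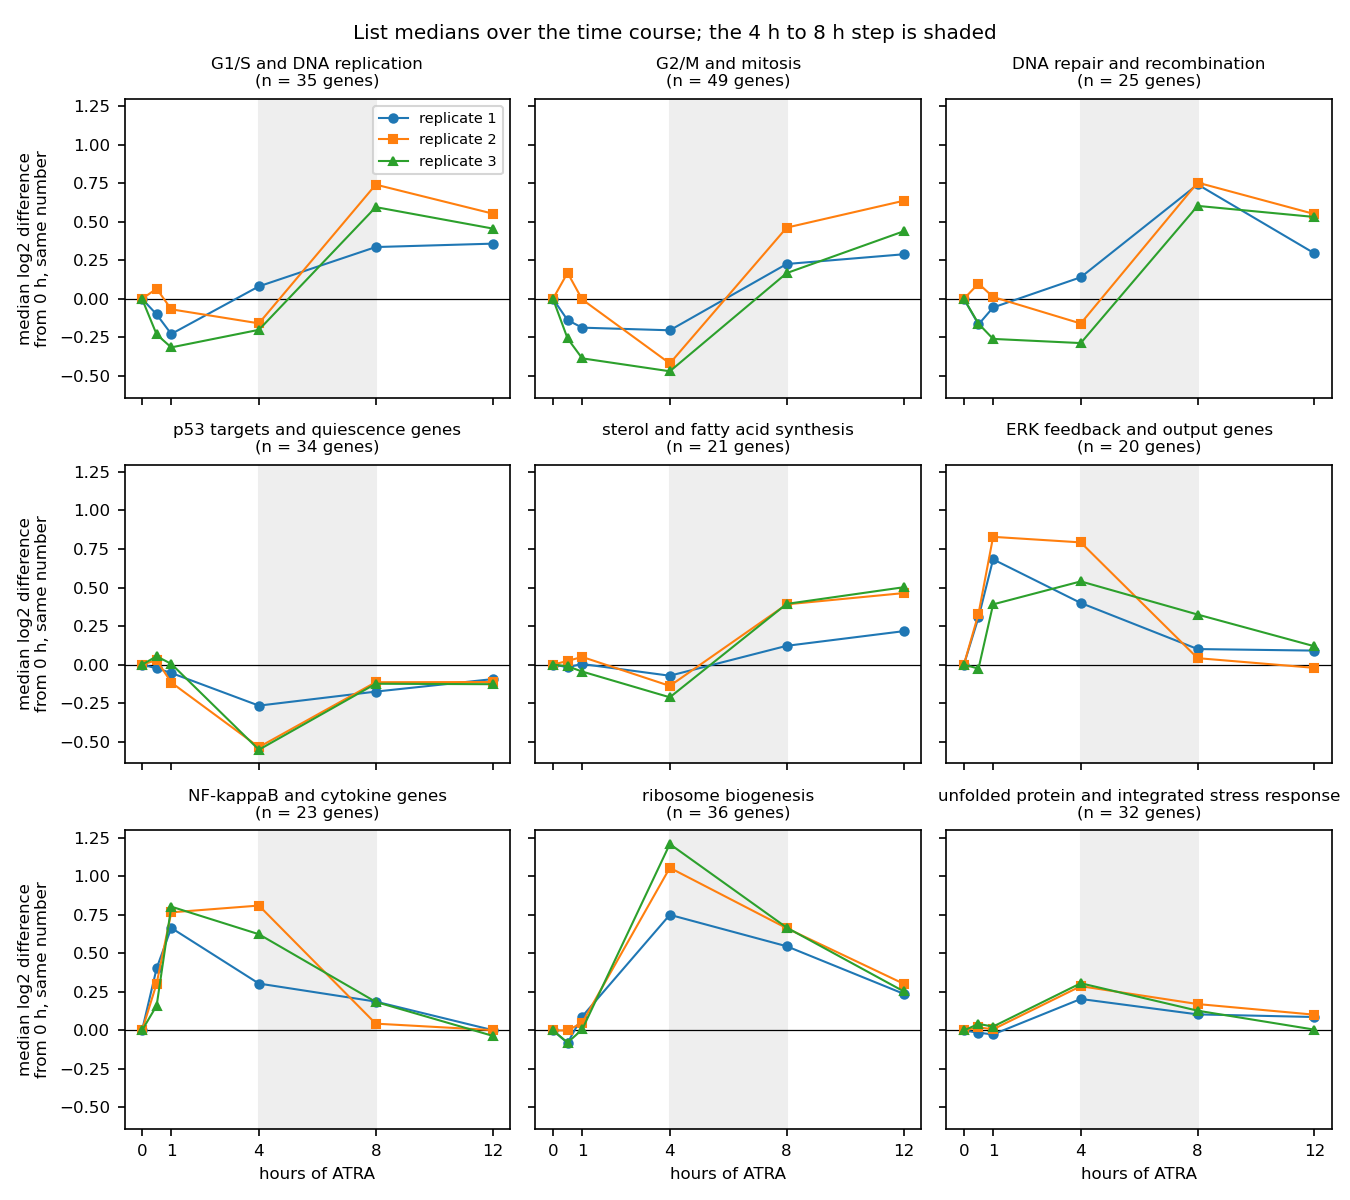
Median log2 difference from 0 h over the genes of 9 lists, 1 line per replicate number, against hours of ATRA; the shaded band is the step from 4 h to 8 h. In the replication, mitosis and repair lists every replicate rises within the band, and in the ERK, NF-kappaB and ribosome biogenesis lists every replicate falls.

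Mitotic genes rose in number. Of 49 measured, 33 rose and none fell, with a median step of 0.69 and medians of 0.49, 0.86 and 0.72 in the 3 pairs. The same list, in the comparison of 4 h with 0 h that shares the 4 h arrays, had 19 members lower and 1 higher (over all genes 1601, or 13%, were lower and 1332, or 10.8%, higher). CDK1, the kinase that starts mitosis, read 7.79, 6.47 and 5.94 at 4 h and 8.48, 8.01 and 7.55 at 8 h (probe set with the highest mean, 2.42-fold, 1.27 ± 0.15, adjusted p = 0.000806; 1.57 without replicate 1). The groups overlapped, since replicate 1 at 4 h lay above replicate 3 at 8 h, yet each culture number rose. Its mean of 6.74 at 4 h compared with 7.76 at 0 h, and the means at 8 h and 12 h were 8.01 and 8.05. SPC25 and NDC80, which belong to the complex that ties kinetochores to spindle microtubules, rose 2.56-fold and 2.31-fold (adjusted p = 0.000731 and 0.00155). NDC80 read 7.52, 5.71 and 5.39 at 4 h and 8.54, 7.17 and 6.54 at 8 h, so that replicate 1 was the highest at both times and the groups overlapped; the rise was 1.30 without replicate 1. KIF20B, a kinesin of late mitosis, and KNTC1, a kinetochore protein of the spindle checkpoint, both rose 2.4-fold (adjusted p = 0.00247 and 0.00848). KNTC1 lost its call without the 4 h array of replicate 2 or 3 or the 8 h array of replicate 2 (adjusted p = 0.0505 to 0.0546).

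The mitotic calls rested on the pairing of arrays. With no term for the replicate number 0 of the 49 genes were called by limma (10 had an unadjusted p under 0.05; smallest adjusted p 0.107), and with the number as a random block 8 were. The count was 32 without replicate 1 and 24 to 34 when 1 array was left out.

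Chromatin genes that follow DNA synthesis rose by smaller amounts, with 11 of 19 measured members higher (57.9%), none lower and a median step of 0.34. Over all genes 6.03% rose and 3.75% fell. ASF1B, a histone chaperone, rose 1.92-fold (0.94 ± 0.15, adjusted p = 0.00292; 0.109 with no replicate term) and HAT1, which acetylates newly made histones, 1.67-fold (adjusted p = 0.00172). DNMT1, which copies DNA methylation onto new strands, read 8.26, 7.76 and 8.00 at 4 h and 8.65, 8.53 and 8.66 at 8 h (1.52-fold, adjusted p = 0.00611), with no overlap between the times. HMGB2, a DNA-bending chromatin protein, rose 1.57-fold (adjusted p = 0.021), but was not called without the 4 h array of replicate 2 or 3 or the 8 h array of replicate 2 or 3 (adjusted p = 0.053 to 0.121). The count was 10 without replicate 1, 5, 7 and 6 without the 4 h arrays of replicates 2 and 3 and the 8 h array of replicate 2, and 4 with no replicate term. Over the replication, mitosis, repair and chromatin lists together, 89 of 128 genes rose and 1 fell.

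**Figure D4:**
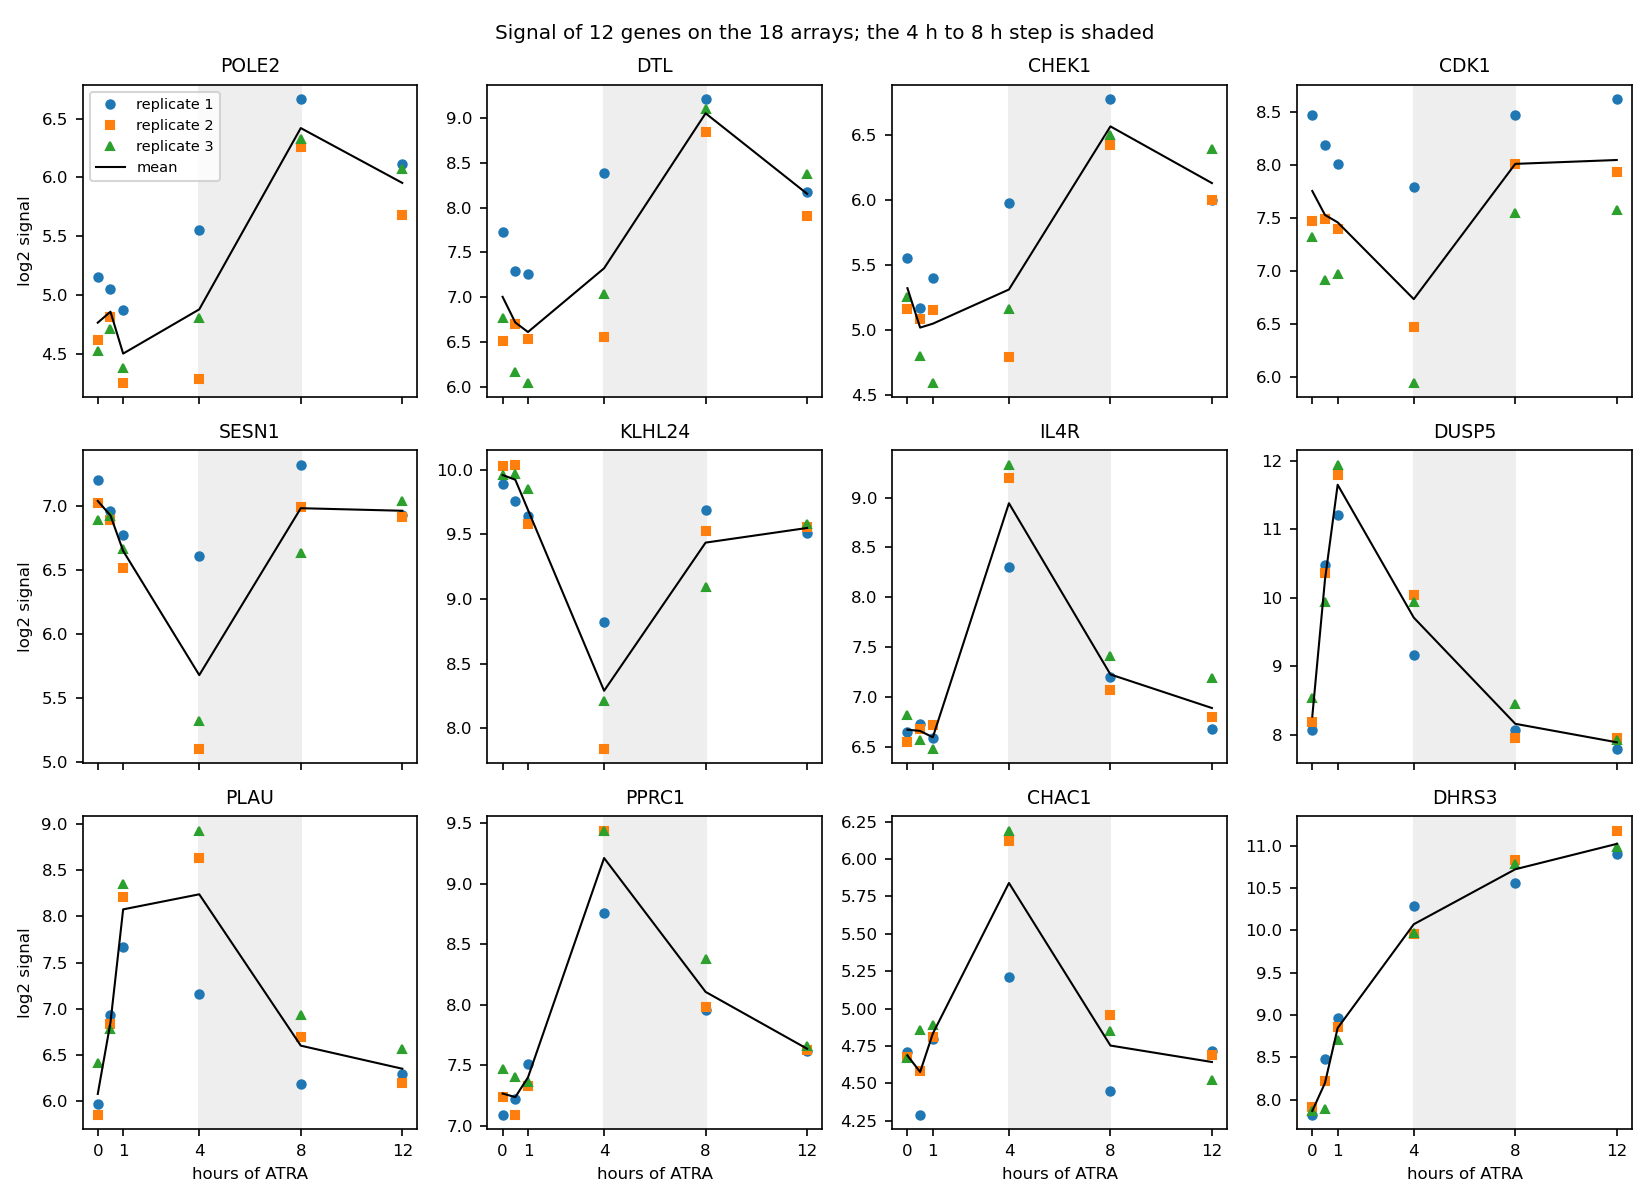
Log2 signal of 12 genes on all 18 arrays against hours of ATRA; symbols mark the replicate number, the line joins the means and the shaded band is the step. POLE2 rises within the band, SESN1 and KLHL24 return from a low at 4 h, IL4R, DUSP5, PLAU, PPRC1 and CHAC1 come down from a high, and DHRS3 goes on rising.

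In the list of p53 targets and genes of resting cells, 14 of 34 rose (41.2%) and 2 fell (5.88%), with a median of 0.19. Over all genes 6.03% rose and 3.75% fell in the step. In the comparison of 4 h with 0 h, which shares the 4 h arrays with the step, 17 of the 34 were lower and 4 higher. Over all genes 13% were lower and 10.8% higher there. SESN1, a stress-induced inhibitor of the growth kinase mTORC1, read 6.61, 5.10 and 5.32 at 4 h and 7.32, 6.99 and 6.63 at 8 h. The groups were apart by a narrow margin, 6.61 against 6.63, and the rise was 2.47-fold (1.30 ± 0.24, adjusted p = 0.00495; 1.60 without replicate 1). Its mean of 5.68 at 4 h compared with 7.04 at 0 h, and the means at 8 h and 12 h were 6.98 and 6.96. SESN3, of the same family, rose 2.26-fold (adjusted p = 0.00407) and RRM2B, a p53-induced subunit of ribonucleotide reductase, 1.93-fold (adjusted p = 0.0023). KLHL24, a ubiquitin ligase adaptor, read 8.82, 7.84 and 8.21 at 4 h and 9.69, 9.53 and 9.09 at 8 h (2.21-fold, 1.15 ± 0.20, adjusted p = 0.00415; 1.28 without replicate 1), against a mean of 9.96 at 0 h. The 2 members that fell were PLK3, a stress kinase (-0.63, adjusted p = 0.0209), and AEN, a nuclease of apoptosis (-0.40, adjusted p = 0.0111). PLK3 was not called without the 4 h array of replicate 2 or 3 or the 8 h array of replicate 2 or 3 (adjusted p = 0.0523 to 0.11), nor AEN without the 4 h or the 8 h array of replicate 2 (0.0698 and 0.0693). The count of 14 was 15 without replicate 1, 9 without the 4 h array of replicate 2 and 10 with no replicate term.

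Other large rises are given with their 0 h means. KLHL14, another Kelch protein, rose 2.44-fold (1.29 ± 0.20, adjusted p = 0.00208) from a mean of 7.24 to 8.53, and stood at 8.91 at 0 h. PDK4, the kinase that restrains pyruvate dehydrogenase and spares glucose, read 5.33, 4.59 and 5.04 at 4 h and 6.32, 6.41 and 6.30 at 8 h (2.55-fold, 1.35 ± 0.22, adjusted p = 0.00305; 1.53 without replicate 1), and its mean at 0 h was 6.14. PTGFR, the receptor for prostaglandin F, rose 2.15-fold (1.10 ± 0.18, adjusted p = 0.00265) from 9.29 to 10.39, with 10.84 at 0 h. None of these 3 genes was called between 0 h and 12 h (limma adjusted p = 0.3 to 0.955).

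Genes of sterol synthesis rose as well. Of 21 measured members of the sterol and fatty acid list, 9 rose (42.9%, against 6.03% of all genes) and none fell (median 0.30). SC5D, which acts late in cholesterol synthesis, read 9.28, 8.14 and 8.32 at 4 h and 9.94, 9.61 and 9.54 at 8 h, with no overlap (2.17-fold, 1.12 ± 0.14, adjusted p = 0.00115; 1.35 without replicate 1). STARD4, a cholesterol carrier, rose 2.11-fold (adjusted p = 0.0014), HMGCS1, which makes the precursor of mevalonate, 1.84-fold (adjusted p = 0.00862) and INSIG1, the sterol-sensing brake on the pathway, 1.84-fold (adjusted p = 0.0214). For these 3 genes the 4 h and 8 h arrays overlapped, and with no replicate term they were not called (adjusted p = 0.101, 0.28 and 0.34). HMGCS1 also lost its call without the 8 h array of replicate 2 (0.0528), and INSIG1 without the 4 h array of replicate 2 or 3 or the 8 h array of replicate 2 or 3 (0.0726 to 0.13). The comparison of 12 h with 0 h shares no array with the step but comes from the same fit. There 9 of the 21 genes were higher and none lower, against 4.47% and 4.38% of all genes. The step count was 11 without replicate 1, 6 without the 4 h array of replicate 2 or 3, 5 without the 8 h array of replicate 2 and 3 with no replicate term.

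IL4R, the receptor for interleukins 4 and 13, had the largest fall of any named gene: it read 8.30, 9.20 and 9.33 at 4 h and 7.20, 7.07 and 7.41 at 8 h (probe set with the highest mean, 3.29-fold, -1.72 ± 0.19, adjusted p = 0.000731; -2.03 without replicate 1). All 8 h arrays lay below all 4 h arrays, and the mean of 7.23 at 8 h compared with 6.67 at 0 h. PLAU, the urokinase that converts plasminogen to plasmin, read 7.16, 8.63 and 8.93 and then 6.18, 6.69 and 6.93 (3.11-fold, -1.64 ± 0.27, adjusted p = 0.00331; -1.97 without replicate 1). Its tissue-type relative PLAT read 10.80, 11.67 and 11.61 and then 9.74, 10.27 and 10.48 (2.29-fold, -1.19 ± 0.22, adjusted p = 0.00532; -1.26 without replicate 1). In both the groups were apart and replicate 1 was lowest at each time. At 12 h PLAT was 2.23 above 0 h (adjusted p = 0.000131), and for PLAU that difference was 0.27 (adjusted p = 0.662). TIMP3, an inhibitor of matrix metalloproteinases, fell 2.03-fold (adjusted p = 0.00115). The 3 genes PLAU, PLAT and TIMP3 were the members called among 35 extracellular proteases and inhibitors (8.57% lower, against 3.75% of all genes).

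**Figure D5:**
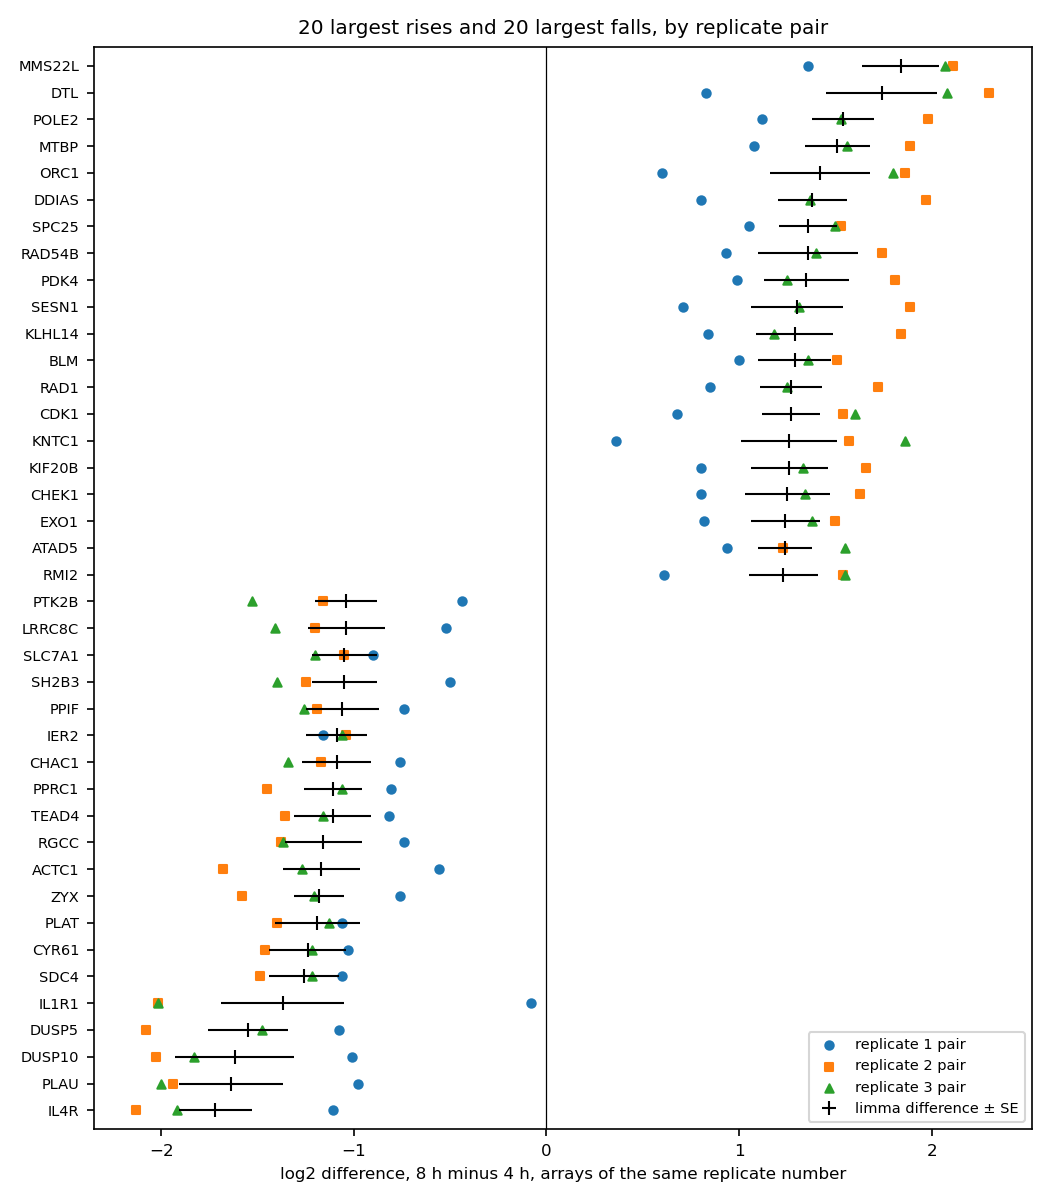
Log2 difference, 8 h minus 4 h, within each replicate pair for the 20 largest rises and 20 largest falls among called genes; symbols mark the pair, the tick with its bar is the limma difference ± SE. The rule for these genes required all 3 pairs to lie on the same side of 0; the pair of replicate 1 has the smallest change for 39 of the 40.

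Among NF-kappaB and cytokine genes, 9 of 23 fell and none rose, and all 23 had a negative difference (median -0.47). IL1R1, the signalling receptor for interleukin 1, read 5.91, 7.50 and 7.88 at 4 h and 5.84, 5.48 and 5.86 at 8 h (2.59-fold, -1.37 ± 0.32, adjusted p = 0.0182). Replicate 1 differed by -0.08 and replicates 2 and 3 by -2.02 each, so the difference was -2.02 without replicate 1; the call was lost without the 4 h array of replicate 2 or 3 or the 8 h array of replicate 2 (adjusted p = 0.0904 to 0.114). ICAM1, a leukocyte adhesion molecule, read 9.70, 10.06 and 9.93 and then 9.10, 9.05 and 8.95 (1.82-fold, -0.86 ± 0.09, adjusted p = 0.00072; -0.99 without replicate 1). Here the replicates were close and the groups apart. CD83, an activation marker, fell 1.89-fold (adjusted p = 0.00517). The list count was 14 without replicate 1, 4 and 6 without the 4 h arrays of replicates 2 and 3, 5 and 4 without the 8 h arrays of replicates 1 and 2, and 6 with no replicate term.

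In the ERK list 11 of 20 genes fell and none rose, with a median of -0.56. Of its 4 DUSP genes, phosphatases that shut off MAP kinases, DUSP10 and DUSP5 fell, and DUSP4 and DUSP2 were not called (-0.42 and -0.05, adjusted p = 0.269 and 0.879). DUSP10, which acts on JNK and p38, read 8.43, 10.16 and 10.04 at 4 h and 7.42, 8.13 and 8.21 at 8 h (3.08-fold, -1.62 ± 0.31, adjusted p = 0.00676; -1.93 without replicate 1). DUSP5, which acts on ERK in the nucleus, read 9.16, 10.03 and 9.93 and then 8.07, 7.95 and 8.45 (2.92-fold, -1.55 ± 0.21, adjusted p = 0.00141; -1.78 without replicate 1). In both, the 8 h arrays lay wholly below the 4 h arrays. The mean of DUSP5 was 8.26 at 0 h, 11.65 at 1 h and 9.71 at 4 h, and that of DUSP10 7.11, 8.59 and 9.54. PHLDA1 fell 2.02-fold (adjusted p = 0.0017), but was not called with no replicate term (adjusted p = 0.125). CCND1, the cyclin of early G1 that ERK signalling induces, read 8.79, 9.36 and 9.64 and then 8.09, 8.70 and 9.16 (1.53-fold, -0.62 ± 0.11, adjusted p = 0.00407; -0.57 without replicate 1). Its groups overlapped, and with no replicate term it was not called (adjusted p = 0.323). The list count was 10 without replicate 1, 7 without the 4 h array of replicate 2 and 7 with no replicate term.

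Immediate early genes fell too. Of 19 measured, 8 fell and NR4A2, a nuclear receptor, rose (1.58-fold, adjusted p = 0.0238); the median was -0.58. NR4A2 was not called without the 4 h array of replicate 2 or 3 or the 8 h array of replicate 1 or 2 (adjusted p = 0.0946 to 0.114). CYR61, a matrix protein that is also a YAP target, read 8.82, 9.66 and 9.70 at 4 h and 7.80, 8.20 and 8.48 at 8 h (2.36-fold, -1.24 ± 0.20, adjusted p = 0.00311; -1.34 without replicate 1), after a mean of 11.36 at 1 h and 7.78 at 0 h. IER2, a short-lived nuclear protein, fell 2.12-fold in 3 near-equal pairs of -1.16, -1.04 and -1.06 (adjusted p = 0.00156). MYC, the growth-driving transcription factor, read 9.33, 10.57 and 10.46 and then 8.63, 9.31 and 9.57 (1.94-fold, -0.95 ± 0.21, adjusted p = 0.0147; -1.08 without replicate 1). Its groups overlapped, the call was lost without the 4 h array of replicate 2 or 3 or the 8 h array of replicate 1 or 2 (0.0628 to 0.0961), and with no replicate term the adjusted p was 0.137. The list count was 9 without replicate 1, 2 and 3 without the 4 h arrays of replicates 2 and 3, 4, 2 and 5 without the 8 h arrays of replicates 1, 2 and 3, and 4 with no replicate term.

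Of 21 YAP and SRF targets, CYR61, VCL and THBS1 fell (14.3%, against 3.75% of all genes), and the median of the list was -0.26. VCL, which links integrins to actin, fell 1.6-fold (adjusted p = 0.0118). The list count was 5 without replicate 1, 5 without its 4 h array alone or the 8 h array of replicate 3, 1 without the 4 h array of replicate 2 or 3, and 2 with no replicate term. VCL was not called without the 4 h array of replicate 2 or 3 or the 8 h array of replicate 2 (adjusted p = 0.0661 to 0.0778), nor THBS1 without the 4 h array of replicate 2 or 3 or the 8 h array of replicate 1 (0.0701 to 0.125). Other large falls lay outside that list. Among 30 collagens, laminins and integrins 2 rose and 3 fell (6.67% and 10%; 1 and 5 without replicate 1). ZYX, a focal adhesion protein, read 10.28, 11.16 and 10.95 at 4 h and 9.51, 9.58 and 9.75 at 8 h, with no overlap (2.27-fold, -1.18 ± 0.13, adjusted p = 0.000731; -1.39 without replicate 1). SDC4, a syndecan that works with integrins at adhesions, fell 2.39-fold (-1.26 ± 0.18, adjusted p = 0.00142) and TEAD4, a DNA-binding partner of YAP, 2.17-fold (adjusted p = 0.00425). ACTC1, an alpha actin, fell 2.25-fold (adjusted p = 0.00371), although its other probe set was not called (-0.57, adjusted p = 0.0605) and with no replicate term the first was not either (0.0554). PTK2B, a tyrosine kinase related to focal adhesion kinase, fell 2.06-fold (adjusted p = 0.00255), and SH2B3, an adaptor that dampens cytokine receptor signalling, 2.07-fold (adjusted p = 0.00285).

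Ribosome biogenesis genes fell in part. Of 36 measured, 17 fell and none rose (median -0.33; pairs -0.20, -0.45 and -0.48). In the comparison of 4 h with 0 h, which shares the 4 h arrays, 34 of the 36 were higher with a median of 1.02. Over all genes 10.8% were higher there. PPRC1, a coactivator of growth and mitochondrial genes, read 8.76, 9.44 and 9.44 at 4 h and 7.96, 7.98 and 8.38 at 8 h (2.15-fold, -1.11 ± 0.15, adjusted p = 0.00115; -1.26 without replicate 1). NOP2, a nucleolar RNA methyltransferase, read 8.78, 9.08 and 9.28 and then 7.98, 8.27 and 8.61 (1.69-fold, -0.76 ± 0.10, adjusted p = 0.00123; -0.74 without replicate 1). For both the groups were apart; the 8 h means were 8.11 and 8.29 and the 0 h means 7.27 and 7.55. URB2, a nucleolar assembly factor, and POLR1C, a subunit of RNA polymerases I and III, fell 1.85-fold and 1.82-fold (adjusted p = 0.00325 and 0.00141). At 12 h 11 of the 36 genes were higher than at 0 h and none lower, against 4.47% and 4.38% of all genes. The step count was 20 without replicate 1, 8 without the 4 h array of replicate 2 or 3, 10 without the 8 h array of replicate 2, 26 without the 4 h array of replicate 1, and 11 with no replicate term.

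Of 24 tRNA synthetases and translation factors 1 rose and 1 fell (4.17% each, near the shares of all genes, 6.03% and 3.75%). In the comparison of 4 h with 0 h, which shares the 4 h arrays, 21 were higher (median 0.53), against 10.8% of all genes. In the step DARS, the aspartyl-tRNA synthetase, rose (1.24-fold, adjusted p = 0.0268), EEF1E1, a scaffold of the synthetase complex, fell (1.55-fold, adjusted p = 0.0177) and 22 were not called, with a median of -0.01. DARS was not called without the 4 h array of replicate 2 or 3 or the 8 h array of replicate 2 or 3 (adjusted p = 0.0509 to 0.154), nor EEF1E1 without the 4 h array of replicate 2 or 3 or the 8 h array of replicate 1 or 2 (0.0583 to 0.112). Among 38 cytosolic ribosomal proteins limma called none, with a median of -0.05. Whether these lists differed from ribosome biogenesis was not tested.

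Of 32 genes of the unfolded protein and integrated stress response, 7 fell (21.9%, against 3.75% of all genes) and 1 rose (3.12%, against 6.03%). The list median was -0.03. VLDLR, a lipoprotein receptor, was the gene that rose (1.4-fold, adjusted p = 0.0192). VLDLR was not called without the 4 h array of replicate 2 or 3 or the 8 h array of replicate 2 (adjusted p = 0.0726 to 0.0989), nor with no replicate term (0.0593). Its other probe set was not called in the main fit (0.44, adjusted p = 0.0515). The named genes that fell belong to the ATF4 branch, which answers amino acid shortage. ATF4 itself read 9.91, 10.66 and 10.57 at 4 h and 8.97, 9.72 and 9.84 at 8 h (1.83-fold, -0.87 ± 0.15, adjusted p = 0.00393; -0.84 without replicate 1). CHAC1, an ATF4 target that degrades glutathione, read 5.21, 6.12 and 6.19 and then 4.45, 4.96 and 4.85 (2.13-fold, -1.09 ± 0.18, adjusted p = 0.00346; -1.25 without replicate 1). In both genes the 8 h arrays lay wholly below the 4 h arrays. TRIB3, a pseudokinase that feeds back on ATF4, fell 1.97-fold (adjusted p = 0.00538) and DDIT3, the transcription factor CHOP, 1.8-fold (adjusted p = 0.000896). The count was 8 without replicate 1, 7 or 8 without any 1 array and 7 with no replicate term. At 12 h ATF4, CHAC1 and TRIB3 differed from 0 h by less than 0.05 and were not called (adjusted p = 0.941 to 0.994), and DDIT3 was lower (-0.43, adjusted p = 0.0221).

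Among 19 genes of retinoid metabolism and transport, 2 rose (10.5%, against 6.03% of all genes) and none fell. The count was also 2 without replicate 1 and with no replicate term, and 1 without the 4 h array of replicate 3; limma called none without the 4 h or the 8 h array of replicate 2. DHRS3, which converts retinaldehyde back to retinol, read 10.29, 9.96 and 9.97 at 4 h and 10.56, 10.83 and 10.78 at 8 h, with no overlap, and rose 1.57-fold (0.65 ± 0.14, adjusted p = 0.0101; 0.84 without replicate 1). Its call was lost without the 4 h or the 8 h array of replicate 2 (adjusted p = 0.0715 and 0.0546). CYP26A1, which degrades retinoic acid, read 10.33, 10.20 and 10.52 and then 10.46, 10.65 and 10.88, an overlapping difference of 0.32 ± 0.11 that was not called (adjusted p = 0.0976). RDH11, a retinal reductase, rose 1.62-fold (adjusted p = 0.0142). Its rise started from 8.06, 7.62 and 7.46 at 4 h, against 8.69, 8.41 and 8.46 at 0 h. RDH11 was not called without the 4 h array of replicate 2 or 3 or the 8 h array of replicate 2 (0.0762 to 0.0903). STRA6, the retinol uptake receptor, had 8 h values wholly below the 4 h values, by -0.30, without passing (adjusted p = 0.0558).

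The measured receptors RARA, RARB and RXRA were not called. RARA read 8.07, 8.25 and 8.19 at 4 h and 8.05, 7.91 and 8.07 at 8 h (-0.16 ± 0.08, adjusted p = 0.256), and the other two both differed by -0.15 (adjusted p = 0.662 and 0.606). Among receptors and coregulators, 4 of 17 rose (23.5%) and 1 fell (5.88%), with and without replicate 1. Over all genes the shares were 6.03% and 3.75%. The list median was 0.01, and 9 of the 17 differences were positive. With no replicate term 2 rose and none fell. The orphan receptors NR2F1 and NR2F2, known retinoic acid responders in other cells, rose 1.77-fold and 1.55-fold (adjusted p = 0.00169 and 0.00399). NR2F1 read 7.48, 7.12 and 7.26 and then 8.00, 8.18 and 8.17, against 8.38, 8.19 and 8.34 at 0 h. NR2F2 read 7.23, 7.03 and 7.15 and then 7.55, 7.94 and 7.82, against 7.70, 7.78 and 8.08 at 0 h. Both rises thus started from 4 h values wholly below the 0 h values. NCOA3 and NCOA2, coactivators of nuclear receptors, rose 1.53-fold and 1.35-fold (adjusted p = 0.00428 and 0.0474), and ASXL1, a chromatin regulator, fell 1.26-fold (adjusted p = 0.0335). The other probe set of ASXL1 was not called (-0.25, adjusted p = 0.0625). Each of the fits without the 4 h array of replicate 2 or 3 or the 8 h array of replicate 2 or 3 lost the calls of NCOA2 and ASXL1 (0.0789 to 0.204), and that without the 8 h array of replicate 1 lost NCOA2 (0.0966). Of 26 genes induced by retinoic acid in other cell types, 6 rose (23.1%) and 2 fell (7.69%), and 7 and 2 did without replicate 1. The list median was -0.03, and 13 of the 26 differences were positive. The rises were 2 and 3 without the 4 h arrays of replicates 2 and 3 and 4 without the 8 h array of replicate 1 or 2. GATA6, a lineage transcription factor, and RAI14, an actin-binding protein, were the members that fell (1.41-fold and 1.5-fold, adjusted p = 0.0152 and 0.00303). GATA6 was not called without the 4 h array of replicate 3 or the 8 h array of replicate 1 (0.0841 and 0.0735).

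Of 28 HOX genes, which retinoic acid controls in embryos, 7 rose (25%) and none fell, with a median of 0.14. Over all genes 6.03% rose and 3.75% fell. HOXA10 read 8.55, 8.17 and 8.03 at 4 h and 8.84, 9.24 and 9.07 at 8 h (1.74-fold, 0.80 ± 0.16, adjusted p = 0.00784; 1.06 without replicate 1), and its mean at 0 h was 9.50. HOXA9 rose 1.64-fold (adjusted p = 0.00802), from 8.27 to 8.98, against 9.31 at 0 h. HOXA5, induced by retinoic acid in other cells, rose 1.46-fold (adjusted p = 0.00899) and was below 0 h at 12 h (-0.50, adjusted p = 0.0158). The HOX count was 6 without replicate 1, 4, 3 and 5 without the 8 h arrays of replicates 1, 2 and 3, and 3 with no replicate term. limma called none without the 4 h array of replicate 2 or of replicate 3, where 9 and 11 members had an unadjusted p under 0.05 and the smallest adjusted p was 0.0532 and 0.0502. Without the 8 h array of replicate 2 HOXA9 was not called either (0.0521).

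Among 12 claudins, the seal proteins of tight junctions, 1 rose (8.33%), and of 29 proximal tubule genes 1 rose and 1 fell (3.45% each), shares near those of all genes. CLDN8 was the claudin that rose: it read 5.66, 4.92 and 4.77 at 4 h and 6.06, 6.31 and 5.90 at 8 h, with no overlap (1.96-fold, 0.97 ± 0.18, adjusted p = 0.00493; 1.26 without replicate 1), against a mean of 6.56 at 0 h. CLDN2, CLDN4 and CLDN7 differed by 0.32, -0.22 and 0.10 (adjusted p = 0.399, 0.245 and 0.752). Of the proximal tubule genes, of which 2 rose and 1 fell without replicate 1, SLC16A9, a carnitine transporter, rose (1.7-fold, adjusted p = 0.0433) and CUBN, the endocytic receptor for vitamin B12 carriers, fell (1.43-fold, adjusted p = 0.00721). CUBN read 8.96, 9.72 and 9.98 and then 8.72, 8.91 and 9.48; its groups overlapped and with no replicate term it was not called (adjusted p = 0.476), nor without the 4 h array of replicate 2 (0.053). SLC16A9 was not called without the 4 h array of replicate 2 or 3 or the 8 h array of replicate 1 or 2 (0.136 to 0.204). HNF4A read 8.93, 8.34 and 8.52 and then 8.61, 9.20 and 9.12, so that replicate 1 went down while the others went up; with all replicates it was not called (0.38, adjusted p = 0.225), and without replicate 1 it was (0.73, adjusted p = 0.00481). The phosphate transporters SLC34A1 and SLC34A2 differed by 0.09 and -0.33 (adjusted p = 0.767 and 0.252), and at 12 h SLC34A2 was 1.85 above 0 h (adjusted p = 4.15e-05).

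Where the genes of the step stood at 12 h was read from arrays outside it, but in the same fit. That fit gives each gene 1 spread and 1 set of replicate terms for all comparisons. Calls in the step and at 12 h are therefore not independent. In the comparison of 12 h with 0 h, which shares no array with the step and called 553 genes higher (4.47%) and 541 lower (4.38%), 161 of the 745 genes that rose in the step were higher and 32 lower, and of the 463 that fell 30 were higher and 50 lower. The median difference of 12 h from 0 h was 0.105 for the genes that rose and 0.00587 for those that fell. Replication, mitosis and repair genes were higher at 12 h than at 0 h for 14 of 35, 23 of 49 and 13 of 25 members, and none was lower. POLE2 was 1.19 above 0 h at 12 h (adjusted p = 0.000995), MMS22L 0.75 (adjusted p = 0.0408) and EXO1 1.01 (adjusted p = 0.0057), whereas CDK1 differed by 0.29 (adjusted p = 0.306) and RAD54B by 0.65 (adjusted p = 0.167).

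The next step of the same length, from 8 h to 12 h, had no called gene (0% of 12361; 2843 probe sets with an unadjusted p under 0.05, smallest limma adjusted p 0.102). It shares the 8 h arrays. The difference between the 2 steps was tested directly: 2 genes (0.0162%), or 4 probe sets, passed, with 3418 probe sets at an unadjusted p under 0.05. POLE2 rose by 1.54 and then differed by -0.47 (difference of the steps 2.01 ± 0.27, adjusted p = 0.0348), and HELLS, a chromatin remodeller of replicating cells, rose by 1.09 and then differed by -0.51 (1.60 ± 0.21, adjusted p = 0.0348). The other 2 probe sets belonged to ATAD5 (15212766, 1.91 ± 0.23) and RBL1 (15246976, 1.05 ± 0.12), a relative of the retinoblastoma protein, both with an adjusted p of 0.0141. HELLS and RBL1 lie outside the naming rule and were chosen after their values were seen. For all other genes a difference between the steps was not shown.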

How the data were processed

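The deposited values are log2 signals, 1 per probe set and array. The software named per the submitters' processing notes is Transcriptome Analysis Console 2.0.0.9. Summarization and normalization methods were not given in the sources used here, and the deposited log2 values were taken without change.

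Of 27558 probe sets 13323 carried 1 gene symbol, 357 several and 13878 none, covering 12361 genes; 902 genes with several probe sets were represented by their brightest probe set on average over the 18 arrays. RefSeq's gene table held the Entrez identifier of 12925 probe sets and updated 7 symbols. The files name no genome build, so no positions are given.

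A model with a mean per time and a term for the replicate number was fitted to all 18 arrays with limma 3.58.1 in R 4.3.3 (10 residual degrees of freedom, two-sided moderated tests, Benjamini-Hochberg over 27558 probe sets). The numbers in the titles were used to pair the samples. Deviations of same-numbered 4 h and 8 h arrays from their group means correlated at 0.51, 0.38 and 0.34. Those of different-numbered arrays correlated at -0.44 to 0.26, with 0.26 and 0.02 between replicates 2 and 3. Deviations within a time are tied by their shared mean, so these values are not independent. They show the pairing of replicates 2 and 3 less clearly. Named genes are the 20 largest rises and 20 largest falls among called genes changed alike in 3 pairs, up to 4 called members per list and direction, and 24 fixed genes, 20 of them measured. Members and lists were chosen with earlier results of these data known. The comparison of 12 h with 0 h and that of the 2 steps were added later. The fit was tested on simulated data. Alternatives changed the block, the arrays, the normalization, the filter on dim signals, the moderation, the probe sets and the threshold. Precision is limited by the number of arrays.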

Additional observations from a re-analysis of the deposited data

How the results depend on the processing

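No call changed direction under any alternative, but the alternatives reuse the same arrays, so this is no independent support. With no replicate block 500 probe sets were higher and 411 lower (287 and 223 genes), and all 911 were among the 2178 of the paired fit; with the number as a random block (consensus correlation 0.195) 1002 and 776 were called. Fitting only the 6 arrays of the step, with 2 residual degrees of freedom, called 0 by limma (4794 at an unadjusted p under 0.05, smallest adjusted p 0.0676). Without 1 array, higher and lower probe sets ran from 468 to 1781 and from 338 to 1204 (genes from 267 to 1060 and from 177 to 619). Without 1 replicate number they ran from 0 to 1266 and from 0 to 1043 (genes from 0 to 752 and from 0 to 518); the smallest adjusted p was 0.158 without replicate 2 and 0.0915 without replicate 3. Requiring a 1.5-fold change, a stricter rule by construction, left 548 and 361 (321 and 172 genes). Quantile normalization (1335 and 857), median centring (1560 and 703), a filter on dim signals (1629 and 1125) and trend and robust moderation (1665 and 1044) stayed within 1.5 times. With 1 probe set per gene 972 and 626 genes were called, against 745 and 463 in the main fit. The share of higher calls was 59.1% and at most 68.9%, with centring. Of 165 named genes called, 91 passed in all 6 fits without 1 array, 97 with no replicate block and 146 with the random block; the cause of these losses was not tested. Signals under the lower quartile of 3.78 limit what can be seen of dim genes.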

Other observations

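Counts in other lists are set beside the shares over all genes, 6.03% higher and 3.75% lower; several lie near them. Among 62 solute carriers and ion transporters, 7 fell (11.3%) and SLC39A8, a zinc and manganese importer, rose (1.61%; 1.25-fold, limma adjusted p = 0.0199). SLC20A1, a sodium-dependent phosphate importer, read 10.84, 11.01 and 10.93 at 4 h and 10.15, 9.97 and 10.00 at 8 h, with no overlap (1.85-fold lower, adjusted p = 0.000689), and was below 0 h at 12 h (-0.47, adjusted p = 0.00706). The amino acid carriers SLC7A1 and SLC1A4 fell 2.07-fold and 1.54-fold (adjusted p = 0.00292 and 0.0208), and the metal importer SLC39A14 1.46-fold (adjusted p = 0.0017). The count of falls was 10 without replicate 1, and 3 without the 4 h array of replicate 2. SLC39A8 and SLC1A4 were not called without the 4 h array of replicate 2 or 3 or the 8 h array of replicate 1 or 2 (0.061 to 0.115). Of 41 RNA processing and transport genes 6 rose (14.6%) and none fell, and the named ones were the nuclear pore genes NUP37, NUP43, NUP107 and NUP85 (1.39-fold to 1.61-fold); the count was 5 without replicate 1 and 3 without the 4 h array of replicate 2, where NUP85 was not called (0.0671). In WNT and Notch signalling 2 of 25 genes rose (8%; 1 without replicate 1), the receptors FZD4 and FZD6, and 4 fell (16%; 5 without replicate 1), among them LEF1 (1.45-fold, adjusted p = 0.00393), the glycosyltransferase LFNG (1.45-fold, adjusted p = 0.00326) and the ligand JAG1 (1.3-fold, adjusted p = 0.0379). FZD4, FZD6 and JAG1 were not called without the 4 h array of replicate 2 or 3 or the 8 h array of replicate 1 or 2 (0.0918 to 0.195), nor JAG1 without the 8 h array of replicate 3 (0.0706). Of 14 circadian regulators 2 fell (14.3%; 1 without replicate 1): PER2 fell 1.95-fold (adjusted p = 0.00517) and NFIL3 1.38-fold (adjusted p = 0.0332); NFIL3 was not called without the 4 h array of replicate 2 or without any of the 8 h arrays (0.0563 to 0.178). In the glycolysis and hypoxia list 3 of 27 rose (11.1%; 5 without replicate 1): ANKRD37, PDK1 and the oxygen sensor EGLN1 (1.72-fold, 1.58-fold and 1.43-fold), of which PDK1 was not called without the 4 h or the 8 h array of replicate 2 (0.0674 and 0.0632).

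FBXO32, a ubiquitin ligase adaptor known from muscle wasting, read 10.33, 10.99 and 10.94 at 4 h and 9.91, 9.85 and 9.83 at 8 h (1.85-fold lower, adjusted p = 0.00193). In its list of 68 adaptors 6 rose (8.82%), among them KLHL24 and FBXL20 (2.21-fold and 1.59-fold), and 4 fell (5.88%), the others being KLHL29, FBXO31 and KLHL26 (-0.83, -0.40 and -0.34, adjusted p = 0.00195, 0.0242 and 0.0257). FBXO31 and KLHL26 were not called without the 4 h array of replicate 2 or 3 or the 8 h array of replicate 1 or 2 (0.0582 to 0.121), nor KLHL26 without the 8 h array of replicate 3 (0.0512). The rises numbered 4 without replicate 1, 3 without the 4 h array of replicate 2 or the 8 h array of replicate 1 or 2, and 3 with no replicate term. The probe sets of TTPA, the vitamin E transfer protein, differed: 15279078 read 6.98, 5.42 and 5.34 and then 7.52, 7.01 and 6.82 (rise of 1.20 ± 0.21, adjusted p = 0.00415), and 15279082, the brighter, differed by -0.07 (adjusted p = 0.581). ARRDC3 and TXNIP, of the alpha-arrestin family, rose by 0.86 and 0.83 (adjusted p = 0.00141 and 0.0161); both, and the TTPA probe set that rose, were chosen after their values were seen. Probe sets with no gene symbol held 490 of the rises and 400 of the falls among 13878.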
